A study of Rattus norvegicus with 35 samples.

Results

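The genes described here are Penk, which encodes proenkephalin, and Htr5b, which encodes serotonin receptor 5B. Both were chosen by their tumour and gland signals on these same arrays, where earlier results had placed them far higher in rat mammary tumours than in normal glands. Every probe set annotated to either was taken. Each gene had 1 probe set, so the members are 2 of the 10411 genes named on the array. The series holds 35 Affymetrix arrays of Rattus norvegicus total RNA. Of these, 11 are normal mammary glands, 8 titled NewN1 to NewN8 and the other 3 titled X27.1N, X28.1N and Young. The remaining 24 are frozen mammary tumours induced with N-methyl-N-nitrosurea (NMU), a carcinogen widely used to raise mammary tumours in rats. The sources used here give no strain, age, NMU dose or time, say nothing of pooled animals and do not explain the titles. No label says that the samples of a group came from separate animals, so the p-values below measure the spread between these samples.

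Proenkephalin is a secreted precursor that is cut within the secretory pathway into the opioid pentapeptides Met-enkephalin and Leu-enkephalin. These peptides act on the delta and mu opioid receptors, which signal through inhibitory G proteins, and are cleared by cell-surface peptidases. Penk is best known in brain and adrenal medulla, and its transcript also occurs in mesenchymal and endocrine tissues. Serotonin receptor 5B is a G protein-coupled receptor known mainly from rodent brain; the human gene is interrupted and gives no full receptor. Serotonin itself is made within the mammary epithelium, where it is known for local control of milk secretion and involution.

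The sequence just before the Htr5b start is shown because the gene was under the detection floor of this work in every normal gland and above it in every tumour. RefSeq's table for the assembly GRCr8 places these 250 bases at chr13:35252587-35252836 on the minus strand, and Penk has no entry in it, so 1 of the 2 members matched. Capitals mark the matches to a CCAAT box and to a GC box, both read on the opposite strand.

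Htr5b promoter: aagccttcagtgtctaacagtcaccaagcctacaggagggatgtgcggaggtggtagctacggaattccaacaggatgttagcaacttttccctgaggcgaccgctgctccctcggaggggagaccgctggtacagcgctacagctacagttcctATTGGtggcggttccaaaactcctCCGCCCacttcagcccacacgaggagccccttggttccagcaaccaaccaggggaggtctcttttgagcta

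The stretch had a GC content of 56.8%. CCAAT had 1 match, beginning 95 bases before the start, and 34.0% of 33469 rat promoter windows of the same length held this motif on either strand. GGGCGG, the GC box, had 1 match, beginning 71 bases before the start, and 30.5% of windows held it. TATAAA (in 12.9% of windows), the cAMP response element TGACGTCA (1.59%) and the AP-1 site TGAGTCA (4.05%) had no match on either strand. A match is a run of letters and no measure of binding in these tissues.

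Penk was higher in the tumours than in the glands. The deposited values are linear probe set signals, referred to below as signal. In the NewN glands the Penk signal was 172 in NewN1, 281 in NewN2, 152 in NewN3, 165 in NewN4, 275 in NewN5, 109 in NewN6, 171 in NewN7 and 246 in NewN8. It was 415 in X27.1N, 208 in X28.1N and 1270 in Young. These 8 NewN glands lay close together, at 196 ± 62.8 (SD, n = 8), and Young stood far above every other gland. Across the tumours the Penk signal had its lowest value of 740 in X26, a median of 2479 and its highest of 4552 in X27.

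All 24 tumours lay above every normal gland except Young, and 20 of 24 also lay above Young. The tumours X2 (746), X6 (774), X20 (889) and X26 fell between Young and the other glands. The tumour mean was 2497 ± 1203 (SD, n = 24) and the normal mean 315 ± 328 (SD, n = 11). On the log2 scale, after values under a floor of 41.6 were raised to it, tumours exceeded glands by 3.16 (SE 0.30), or 8.97-fold. This was the 5th largest rise among the 10411 genes, each taken at its probe set of highest mean signal. Its place was 2 with the floor at the 20th percentile and 21 against X27.1N, X28.1N and Young alone. Since this difference chose the gene, it is given without a test. It depends on which glands are used: it was 3.40 without Young, 3.53 against the NewN glands alone and 2.18 against X27.1N, X28.1N and Young alone.

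Htr5b separated the groups with no overlap. Its signal in the NewN glands was 31.0 in NewN1, 26 in NewN2, 13.5 in NewN3, 15.3 in NewN4, 29.3 in NewN5, 19.2 in NewN6, 25.6 in NewN7 and 22.9 in NewN8. It was 19.3 in X27.1N, 2.88 in X28.1N and 34.6 in Young. All 11 glands thus lay under the floor, where values carry no order. Across the tumours the Htr5b signal had its lowest value of 53.0 in X22L, a median of 238 and its highest of 388 in X21.

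X22L was the tumour nearest to the glands, and the next lowest, X2, was at 105. The tumour mean was 246 ± 91.0 (SD, n = 24), against 21.8 ± 9.06 (SD, n = 11) in the glands. Since all glands are at the floor, the log2 difference of 2.44 (SE 0.19) is a bound set by the floor. The geometric mean of the tumours (226) was at least 5.43-fold higher, which is no bound for each tumour, as X22L shows. With the floor at the 5th percentile of all values (26.1) the log2 difference was 3.04. At the 20th (68.5), under which X22L also fell, it was 1.74. Its place among the rises of the 10411 genes follows the floor as well, from 7 at the lower of these floors to 19 at the higher. On this array 58.2% of 15866 probe sets differed between tumours and glands at a limma adjusted p under 0.05, 33.0% higher and 25.2% lower. A probe set with every tumour above every gland was less common, at 0.290%, and Htr5b was among these; 2.04% had every tumour below every gland. These shares are background to the choice of the genes.

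**Figure D1:**
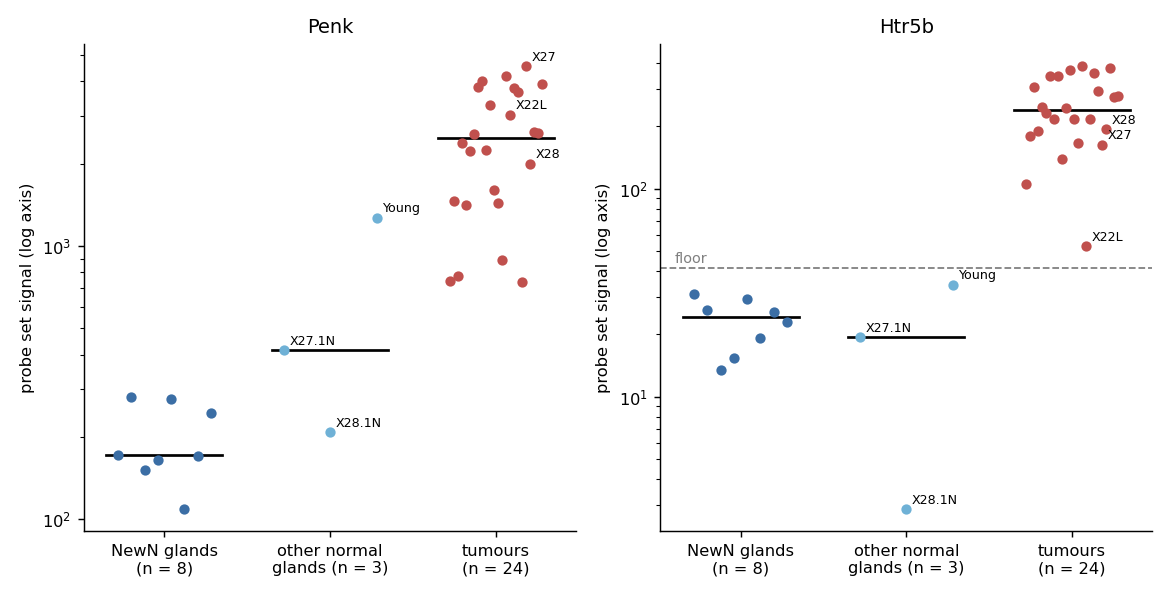
Signal of the Penk and Htr5b probe sets (log axis) in each of 8 NewN glands, 3 other normal glands and 24 tumours; each point is an array, black lines are group medians, and the dashed line is the floor of 41.6. All tumours lie above the NewN glands for both genes, the gland Young reaches the lower tumours for Penk, and X22L is the lowest tumour for Htr5b.

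The tissues differed in the signal of cell type markers, and in bulk RNA fewer cells of a type and less RNA per cell cannot be told apart. By gene, 58.9% of the 10411 genes differed at a limma adjusted p under 0.05, 31.4% higher and 27.5% lower in tumours, and the marker counts stand beside these shares. Sums of signal over marker lists had the following medians in glands and tumours. The 16 luminal epithelial markers went from 15094 (range 6396 to 16930) to 24481 (range 1783 to 36349), with 9 higher and 0 lower. The 9 adipocyte markers went from 26627 (range 12532 to 33518) to 808 (range 498 to 5063), with 9 lower, and 1 of them was at the floor in every tumour. The 11 fibroblast markers went from 28990 (range 22768 to 51226) to 6116 (range 1310 to 49976), with 9 lower and 0 higher. Of 9 basal epithelial markers 4 were lower, of 8 macrophage markers 5 were lower and 1 higher, and of 8 neuroendocrine granule markers 5 were higher and 1 lower, with 1 at the floor in every tumour. Of 12 proliferation markers 10 were higher and 0 lower, of 7 endothelial markers 6 were lower, and all 8 skeletal muscle markers were lower. Calls went both ways among 11 T and NK cell markers (2 higher, 3 lower) and 7 mast cell markers (1 higher, 3 lower). They also did among 8 nerve and Schwann cell markers (1 higher, 3 lower) and 10 matrix proteases (5 higher, 1 lower). Array measures moved too: the 10th percentile of signal was 38.2 ± 2.66 (SD, n = 11) in glands and 43.6 ± 2.59 (SD, n = 24) in tumours, and the 90th was 718 ± 38.6 and 596 ± 46.1. The 3′ to 5′ signal ratio of Gapdh was 1.13 ± 0.126 and 1.02 ± 0.0795. The part of these differences in the Penk and Htr5b values was not tested.

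Among the normal glands Penk was lower on average in those titled NewN. The log2 difference between the 8 NewN glands and the other 3 was -1.35, with an exact 2-sided permutation p of 0.0485 over 165 arrangements. This p rested on both Young and X27.1N, and X28.1N (208) lay within the NewN range of 109 to 281. Without Young the difference was -0.65 and the exact permutation p 0.178, and without X27.1N it was -1.46 with a p of 0.178. Without X28.1N it was -1.95, with an exact permutation p of 0.0444. Young also had the lowest luminal marker sum among the glands (6396) and the highest fibroblast sum (51226). X27.1N had the lowest adipocyte sum among the glands (12532) and the highest proliferation sum (3847). Its T and NK cell sum was 5277, beside a gland median of 1513 (range 1255 to 8699). Its macrophage sum was 11652 beside a median of 7457, and its 1 measured B cell marker was 1013 beside 28.6. The part of these marker signals in the Penk signals of Young and X27.1N was not tested. Htr5b in the glands could not be compared, since all 11 were under the floor.

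Some titles share a number, which may mark a shared rat, although no label says so. The Penk signal of X27 was 10.97 times that of X27.1N, and that of X28 was 9.59 times that of X28.1N. Both factors lay near the 8.97 of the groups. The tumours X25L (3786) and X25R (3667) differed 1.03-fold in Penk, and X29.1 (2622) and X29.2 (2595) differed 1.01-fold. The median ratio over all 276 pairs of tumours was 1.75. For Htr5b the same pairs differed 1.66-fold, with 216 in X25L and 359 in X25R, and 1.38-fold, with 381 in X29.1 and 276 in X29.2, against a median ratio of 1.49. Same-numbered tumours thus lay closer than the median pair for Penk in 2 of 2 cases and for Htr5b in 1 of 2, which is a description of 2 pairs.

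The spread within the tumours was wide for both genes. The Penk signal spanned 6.15-fold from lowest to highest, with an SD of 0.84 on the log2 scale. The Htr5b signal spanned 7.32-fold with an SD of 0.67, and 3.68-fold when X22L was left out. Some tumours were high in one gene and low in the other. X22L had a Penk signal of 3021, above the tumour median, and the lowest Htr5b. X27 had the highest Penk signal and an Htr5b signal of 163. X26 had the lowest Penk signal and an Htr5b signal of 294, and X18 had 1598 and 370. X21 was high in both, at 4173 for Penk and 388 for Htr5b, and X2 was low in both, at 746 and 105.

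Across the 24 tumours Pearson's r between the log2 signals of Penk and Htr5b was 0.14 (permutation p = 0.53, Benjamini-Hochberg adjusted p = 0.93 over 35 relations). Spearman's rho was 0.21 (permutation p = 0.312, adjusted p = 0.714). Without X26 and X2, the tumours farthest from the Penk median, r was 0.06, and without X22L it was 0.30 (permutation p = 0.167). No relation between the genes was detectable in these 24 tumours.

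**Figure D2:**
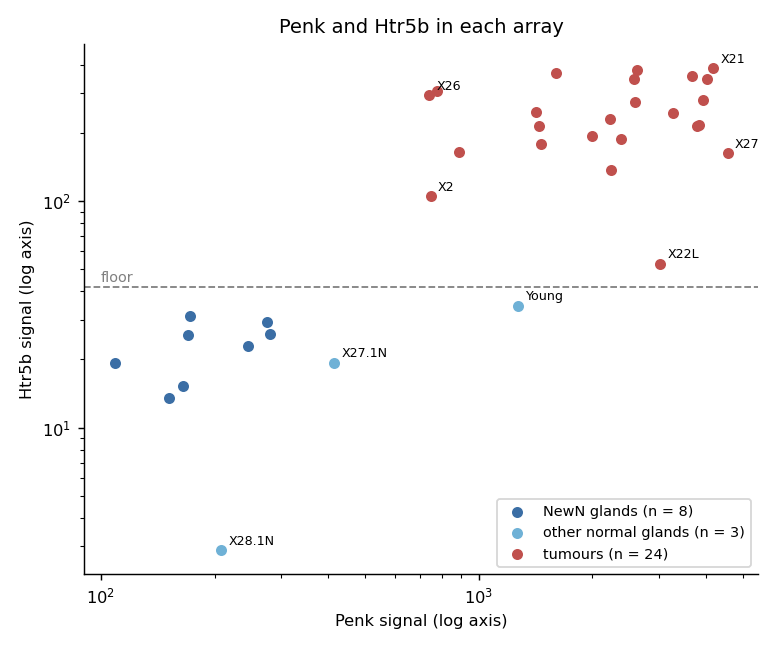
Htr5b signal against Penk signal (both log axes) in each array; the dashed line is the floor of 41.6 for Htr5b. Tumours occupy the upper right, and within them Penk and Htr5b show little relation (r = 0.14), with X22L low in Htr5b at a Penk signal of 3021.

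Around Penk, the other opioid precursors showed small differences or none that passed. Pomc, the precursor of beta-endorphin, had a signal of 61.3 ± 20.5 (SD, n = 11) in glands and 86.1 ± 17.2 (SD, n = 24) in tumours, a log2 difference of 0.49 (SE 0.13, limma adjusted p = 0.00126). Pdyn, which encodes prodynorphin, differed by 0.07 (limma adjusted p = 0.354), and Pnoc, the precursor of nociceptin, by 0.26 (limma adjusted p = 0.109). Against X27.1N, X28.1N and Young alone the Pomc difference was -0.05 (limma adjusted p = 0.92), and that of Pnoc was -0.41 (limma adjusted p = 0.16). With the NewN glands alone Pnoc passed at 0.51 (limma adjusted p = 0.00111). Beside the 58.9% of all genes that differed, 31.4% higher and 27.5% lower with a median difference of 0.02, of 23 measured opioid genes other than Penk 10 were higher, 8 lower and 5 did not pass, with a median difference of 0.26.

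Of the 6 opioid receptors, 2 were higher, 2 lower and 2 did not pass, beside 31.4% of all genes higher and 27.5% lower. Oprd1, the delta receptor at which enkephalins act, rose by 0.52 (SE 0.12, limma adjusted p = 0.000249), with 16 of 24 tumours above every gland. Oprk1, the kappa receptor, rose by 0.60 (SE 0.12, limma adjusted p = 9.16e-05). Oprm1, the mu receptor, differed by 0.22 (limma adjusted p = 0.118), and its other probe set by 0.47 (limma adjusted p = 0.00261). Oprl1 differed by 0.17 (limma adjusted p = 0.32), and its other probe sets by 0.31 (limma adjusted p = 0.000634) and 0.12 (limma adjusted p = 0.136). Of the other probe sets of Oprk1 the differences were 0.38 (limma adjusted p = 0.00167) and 0.02 (limma adjusted p = 0.63). The largest difference was in Ackr3, an atypical chemokine receptor that also takes up opioid peptides. Its signal was 683 ± 174 (SD, n = 11) in glands and 69.9 ± 68.3 (SD, n = 24) in tumours, a log2 difference of -3.37 (SE 0.26, limma adjusted p = 5.15e-13), and all 24 tumours lay below every gland. Since 12 of 24 tumours were under the floor for Ackr3, the size of its difference is partly set by the floor, at -3.64 with the 5th percentile and -2.95 with the 20th. Ogfr, a receptor that binds Met-enkephalin, fell by 0.37 (limma adjusted p = 0.0194). With quantile normalization Ogfr no longer passed (limma adjusted p = 0.0654). Ackr3 still passed against X27.1N, X28.1N and Young alone (-3.44), whereas Oprd1 (0.16, limma adjusted p = 0.597), Oprk1 (0.03, limma adjusted p = 0.964) and Ogfr (0.07, limma adjusted p = 0.889) did not.

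All 8 measured genes of peptide processing passed, 5 higher and 3 lower, beside 31.4% of all genes higher and 27.5% lower. Higher were the convertases Pcsk2 (log2 difference 0.48), Pcsk5 (0.53) and Furin (0.43, limma adjusted p = 0.042), the Pcsk2 chaperone Scg5 (0.35) and the aminopeptidase Rnpep (0.44). Lower were Ctsl (-1.09), a cathepsin that also cuts proenkephalin, Pcsk1n (-0.27), an inhibitor of convertases, and Cpe. Cpe removes the basic residues that convertases leave behind. Its signal was 695 ± 261 (SD, n = 11) in glands and 466 ± 282 (SD, n = 24) in tumours, a difference of -0.88 (SE 0.38, limma adjusted p = 0.048). That call was lost with quantile normalization (limma adjusted p = 0.136) and against the NewN glands alone (limma adjusted p = 0.0758), as was that of Furin against the NewN glands alone (0.25, limma adjusted p = 0.291). The Pcsk1n call was lost with same-numbered samples as a block (-0.25, limma adjusted p = 0.0566) and with the floor at the 20th percentile (-0.04, limma adjusted p = 0.436), and 10 of 24 tumours were under the floor for it. The other probe sets of Pcsk5 differed by -0.22 and -0.07 and did not pass. Against X27.1N, X28.1N and Young alone Pcsk2 (0.41), Scg5 (0.27), Cpe (-0.78) and Pcsk1n (0.21) no longer passed, and only Pcsk1n among these changed sign.

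Genes for the peptidases that degrade enkephalins were split, with 2 of 6 higher and 3 lower. Over all genes the shares were 31.4% higher and 27.5% lower. Mme, which encodes neprilysin, had a signal of 508 ± 153 (SD, n = 11) in glands and 137 ± 87.0 (SD, n = 24) in tumours. The log2 difference was -2.02 (SE 0.25, limma adjusted p = 3.5e-08), and 23 of 24 tumours lay below every gland. Anpep, aminopeptidase N, went from 751 ± 196 to 166 ± 68.1, a difference of -2.23 (SE 0.18, limma adjusted p = 7.36e-13), with all 24 tumours below every gland. Ece1, an endothelin-converting enzyme, fell by 0.97 (limma adjusted p = 1.07e-07). Npepps (0.31) and Lnpep (0.35), both aminopeptidases, rose. The other probe set of Lnpep differed by 0.01 (limma adjusted p = 0.895). Ace did not pass at 0.26 (limma adjusted p = 0.369), while its other probe set was higher, at 0.61 (limma adjusted p = 0.0424). Mme (-1.87) and Anpep (-2.10) still passed against X27.1N, X28.1N and Young alone, and Ece1 (-0.42), Npepps (0.28) and Lnpep (0.04) did not. Mme is also a marker of myoepithelial and stromal cells, whose marker sums were lower in these tumours, and their part was not tested. Pcsk1 and Dpp3 were not analysed here.

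Around Htr5b, the other serotonin receptors were mostly higher in the tumours. Of 13 other measured receptors, 11 were higher, 1 lower and 1 did not pass, with a median difference of 0.45. Of all genes 31.4% were higher and 27.5% lower, with a median difference of 0.02. Htr1d, an inhibitory receptor, had a mean signal of 84.7 ± 39.8 (SD, n = 11) in glands and 194 ± 49.7 (SD, n = 24) in tumours, with a log2 difference of 1.28 (SE 0.16, limma adjusted p = 3.49e-08). Htr5a, the nearest relative of Htr5b, went from 110 ± 45.7 to 184 ± 35, a difference of 0.82 (SE 0.13, limma adjusted p = 2.66e-06). Htr3a, a subunit of the ion channel receptor, rose by 0.71, Htr1a by 0.59, Htr3b by 0.59, and Htr7, known from mammary epithelium, by 0.57. Htr2c (0.45), Htr4 (0.45), Htr6 (0.40), Htr1b (0.30) and Htr2a (0.24) also rose, the last no longer passing with quantile normalization (limma adjusted p = 0.054). Htr2b fell by 0.39 (limma adjusted p = 0.000445). A further probe set of Htr2c, of Htr2a and of Htr7 lay at the floor throughout. Htr1f was under the floor in every array.

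The receptors' differences were small beside the 2.44 of Htr5b and depended on the glands they were set against. Against X27.1N, X28.1N and Young alone 1 of the 13 was higher (Htr2c, 0.48), 1 lower and 11 did not pass, with a median of 0.17, where 17.9% of all genes differed, 6.85% higher and 11.1% lower. Against the NewN glands alone 11 were higher, with a median of 0.58, where 60.2% of all genes differed, 31.4% higher and 28.9% lower. Htr5a differed by 1.10 from the NewN glands and by 0.07 from the other 3, and Htr1d by 1.61 and 0.40. The difference for Htr5b was 2.44 against either set, since both lay under the floor. Most of these receptors had low signals, and among the 7033 genes with a geometric mean signal under 300, 36.7% were higher and 22.2% lower, with a median of 0.09. The 10th percentile of signal was itself higher in the tumours, as given above, and its part in these small rises was not tested.

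Genes that supply and remove serotonin showed both directions, beside 31.4% of all genes higher and 27.5% lower. Of 4 measured synthesis genes 2 were higher and 2 lower. Ddc, which makes serotonin from 5-hydroxytryptophan, rose by 0.48 (limma adjusted p = 3.55e-05), and Gch1, which starts synthesis of the cofactor of tryptophan hydroxylase, by 0.67 (limma adjusted p = 1.18e-05). Qdpr, which recycles that cofactor, fell by 0.88 (limma adjusted p = 8.83e-12), and Pts by 0.35. Of 6 genes of transport and breakdown 4 were lower. Maoa, a monoamine oxidase that oxidises serotonin, went from 341 ± 76.9 (SD, n = 11) to 193 ± 37.9 (SD, n = 24), a log2 difference of -0.81 (SE 0.11, limma adjusted p = 3.07e-07). Maob (-0.74), the uptake transporter Slc6a4 (-0.27) and the organic cation transporter Slc22a3 (-1.07) were lower as well. Slc18a1, a vesicular transporter, was higher (0.35), and Slc18a2 differed by 0.15 (limma adjusted p = 0.154). The other probe set of Slc18a2 was higher, at 0.38 (limma adjusted p = 0.00434). The Slc18a1 call was lost with quantile normalization (0.19, limma adjusted p = 0.094) and with the floor at the 20th percentile (0.05, limma adjusted p = 0.179). Against X27.1N, X28.1N and Young alone Qdpr, Maoa (-0.90) and Slc22a3 still passed. Those that did not were Ddc (0.33), Gch1 (0.56), Pts (-0.27), Maob (-1.05), Slc6a4 (-0.37) and Slc18a1 (0.39), with 3 normal glands in place of 11. Tph1 and Tph2, the tryptophan hydroxylases, as well as Spr and Pcbd1, were not analysed here.

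The opioid receptors and some of the serotonin receptors, such as Htr1d, signal through inhibitory G proteins. Gnai1 fell from 323 ± 125 (SD, n = 11) to 47.3 ± 16.7 (SD, n = 24), a log2 difference of -2.55 (SE 0.20, limma adjusted p = 2.32e-13), with 20 of 24 tumours below every gland. For Gnai1 9 of 24 tumours were under the floor, and the difference was -2.66 with the floor at the 5th percentile and -2.06 at the 20th. Gnai2 fell by 0.25 (limma adjusted p = 0.00645), which turned to 0.01 (limma adjusted p = 0.938) with quantile normalization. Gnao1 rose by 0.37, Gnaz differed by 0.25 (limma adjusted p = 0.0898), and Gnai3 was not analysed here. The other probe set of Gnaz was higher, at 0.41 (limma adjusted p = 0.00293). Among 12 CREB and AP-1 factors, known regulators of Penk transcription, 3 were higher, 3 lower and 6 did not pass. Over all genes 31.4% were higher and 27.5% lower. Junb rose by 0.52, Fosb by 0.42 and Fosl1 by 0.38, while Creb1 fell by 0.76, Crem by 0.19 and Atf1 by 0.19. The Fosl1 signal was near the floor, at 45.6 in glands and 60.4 in tumours on average. Its call was lost with the floor at the 20th percentile (0.03, limma adjusted p = 0.356). Fos differed by 0.41 (limma adjusted p = 0.092) and Jun by -0.04 (limma adjusted p = 0.811). A further probe set of Crem lay at the floor throughout, and another differed by 0.08 (limma adjusted p = 0.528). Other probe sets disagreed for Creb1, at -0.22 (limma adjusted p = 0.0187) and 0.05 (limma adjusted p = 0.35), and for Jun, at -0.76 (limma adjusted p = 0.000142) and -0.14 (limma adjusted p = 0.34). Gnai1 (-1.72), Junb and Crem still passed against X27.1N, X28.1N and Young alone. Gnai2 (-0.28), Gnao1 (0.08), Creb1 (-0.002), Atf1 (-0.24), Fosb (0.12) and Fosl1 (0.21) did not. Crem (limma adjusted p = 0.0741) and Atf1 (limma adjusted p = 0.718) also did not pass with quantile normalization, where Fos did (0.49, limma adjusted p = 0.0463). The Crem (limma adjusted p = 0.188) and Atf1 (limma adjusted p = 0.116) calls were lost against the NewN glands alone too.

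**Figure D3:**
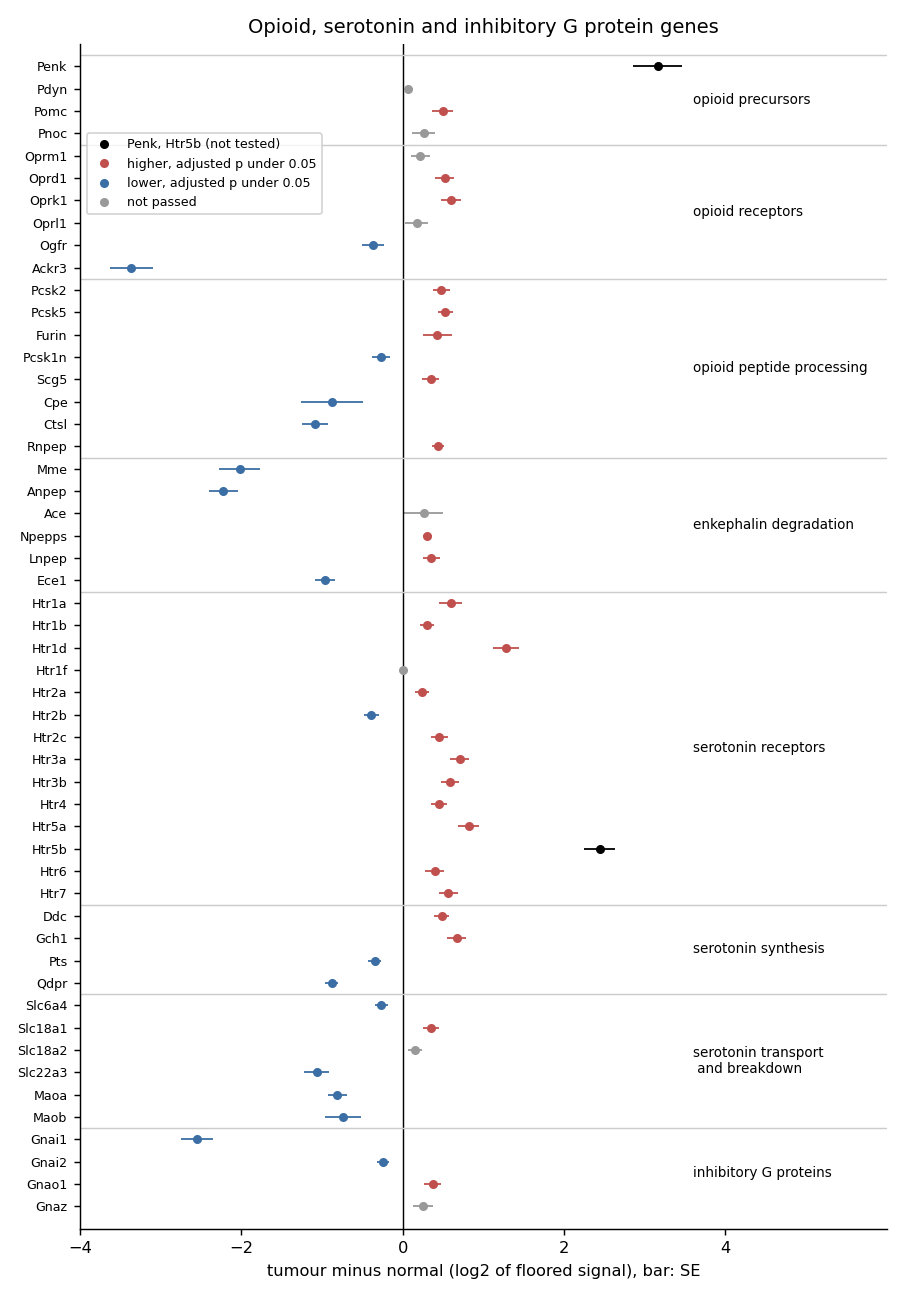
Tumour minus normal difference (log2 of floored signal, bars are SE) for opioid, serotonin and inhibitory G protein genes, with Penk and Htr5b in black and not tested. Red and blue points passed a limma adjusted p under 0.05; Penk (3.16) and Htr5b (2.44) lie to the right of every other gene drawn, and Ackr3 (-3.37) and Gnai1 (-2.55) lie farthest to the left.

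The genes most like Penk were found by Pearson's r of log2 signal over the 24 tumours, among 9816 genes above the floor in at least 12 tumours. These correlations are descriptive: all points share the tumours' cell makeup, and no p is given. Ltbp3, a binding protein of latent TGF-beta, had the highest r with Penk at 0.63. Emilin1, an elastic fibre glycoprotein, followed at 0.61, as did Mxra8, a surface protein of mesenchymal cells, at 0.61. Cbfb, Cpe and Man2a1 each had 0.60, Sema5a 0.59, the vascular connexin gene Gja4 0.58, Pakap 0.58 and Ptprm 0.57. Cpe is the carboxypeptidase of enkephalin processing, and it ranged from a signal of 37.7 to 923 across the tumours.

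None of the 9816 genes reached an r of 0.7 with Penk, and 66 reached 0.5. Without X22L the 10 named genes had an r of 0.57 to 0.68, and all 10 remained among the 50 highest. With Spearman's rho 7 of them did. The genes most unlike Penk were Glra1 (r -0.65), Fbxo39 (-0.61), Plaat5 (-0.60), Dpcd (-0.60) and Mrpl39 (-0.58). The first 3 of these were at the floor in 10, 11 and 7 tumours. The genes most like Penk within the tumours differed in both directions between tumours and glands: Emilin1 was higher in tumours by 1.01 (limma adjusted p = 8.2e-05), while Mxra8 differed by -1.33 (limma adjusted p = 1.13e-06).

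Htr5b had closer companions, but many of them rested on X22L. Apoe, the lipid carrier apolipoprotein E, had the highest r at 0.84, followed by Lgals7, a galectin of stratified epithelia, at 0.83, and Gpd2, the mitochondrial glycerol phosphate dehydrogenase, at 0.83. Tp63, the transcription factor of basal epithelial cells, had 0.83. Minar2, Lyplal1, Ctnnal1 and Jag2, a Notch ligand, each had 0.82, and Src, a tyrosine kinase, and Ablim1 each 0.81. Most unlike it were Bcl2a1 (r -0.83), a survival gene of leukocytes, Pira2 (-0.79), 6430548M08Rikl (-0.74), Insr (-0.74) and Kcna5 (-0.74).

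Without X22L the r of Htr5b was 0.69 with Apoe, 0.67 with Lgals7, 0.73 with Gpd2, 0.67 with Tp63 and 0.73 with Minar2. All 10 remained among the 50 highest. The number of genes with an r of at least 0.7 went from 89 to 10, and those at -0.7 or lower from 14 to 2. The r with Insr went from -0.74 to -0.43. In X22L the Tp63 signal was 1, the lowest value in the data, and that of Lgals7 was 47.6 against a tumour median of 1178. X22L had the lowest luminal (1783) and basal (1076) marker sums of the tumours and the highest fibroblast (49976) and macrophage (14420) sums. Its low Htr5b signal thus came with low epithelial marker signal, while its Penk signal of 3021 lay within the range of the other tumours. Prpf18, chosen after its values were seen, was the 1 gene with an r of at least 0.5 to both, at 0.54 with Penk and 0.53 with Htr5b.

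**Figure D4:**
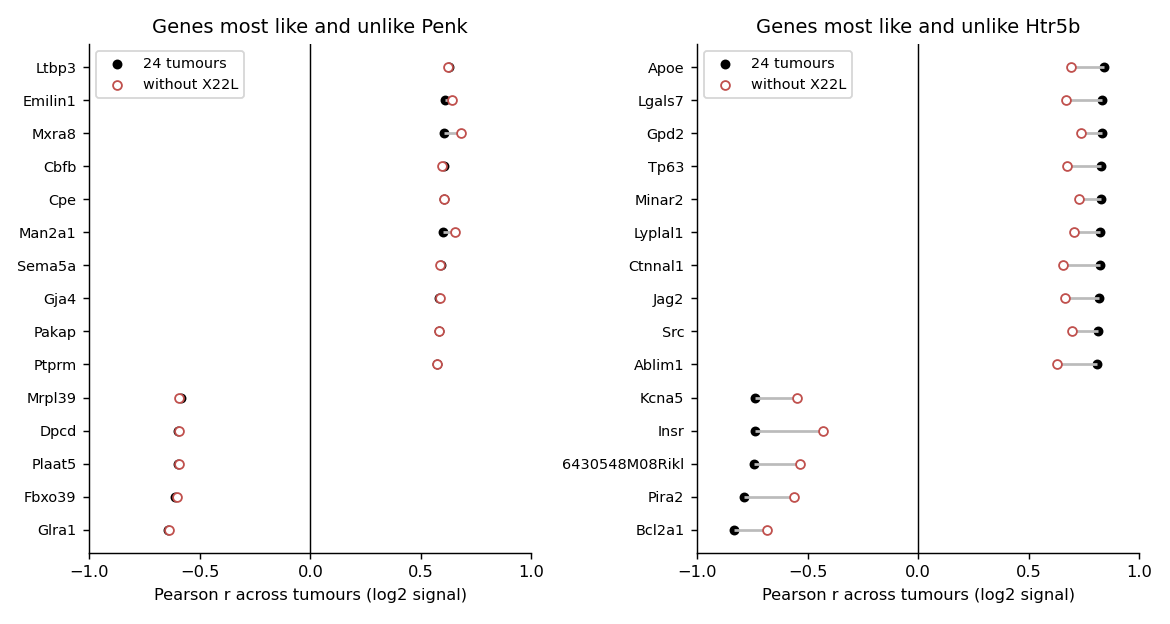
Pearson r over tumours of the 10 genes most like and the 5 most unlike Penk (left) and Htr5b (right), with 24 tumours (filled) and without X22L (open). For Penk the paired points lie close together, between 0.57 and 0.68 for the like genes, and for Htr5b every pair moves towards 0 when X22L is left out.

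A marker list score was the mean log2 signal over the list's genes above the floor in at least 12 tumours, each gene standardised across tumours first. For example, 4 of 9 adipocyte, 3 of 8 skeletal muscle and 5 of 8 nerve and Schwann cell markers entered their scores. Each member was also set against 13 such scores and 4 array measures across the tumours. With the relation between the members this made 35 relations, and 0 passed a Benjamini-Hochberg adjusted p under 0.05, by Pearson or by Spearman; 3 had an unadjusted permutation p under 0.05 by Pearson and 2 by Spearman. For Htr5b, r was 0.66 with the basal epithelial score (permutation p = 0.0021, adjusted p = 0.0735), and rho was 0.42 (permutation p = 0.0398, adjusted p = 0.588). Without X22L and X17, the tumours farthest from the median score, this r was 0.41. With the luminal score r was 0.66 (permutation p = 0.0131, adjusted p = 0.153) and rho 0.31 (permutation p = 0.142, adjusted p = 0.714), and without X22L and X32 r was 0.06. Without X22L alone it was 0.03, so that relation rested on X22L. With the macrophage score r was -0.55 (permutation p = 0.0068, adjusted p = 0.119) and rho -0.37 (permutation p = 0.0772, adjusted p = 0.675), and without X22L and X15 r was -0.15. With X22L left out, 0 relations had an unadjusted Pearson permutation p under 0.05.

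Penk followed no score closely. Its r of largest size was 0.38, with the fibroblast score (permutation p = 0.0682, adjusted p = 0.398; rho 0.28, permutation p = 0.191, adjusted p = 0.714), and it was 0.40 without X22L and X10. With the matrix protease score r was 0.34 (permutation p = 0.102, adjusted p = 0.447; rho 0.26, permutation p = 0.224, adjusted p = 0.714). With the neuroendocrine granule score r was -0.19 (permutation p = 0.377, adjusted p = 0.824; rho -0.18, permutation p = 0.389, adjusted p = 0.743). The array measures had an r of at most 0.28 in size with Penk and 0.11 with Htr5b. Without X22L the r of Htr5b was -0.25 with the 10th percentile of signal and 0.14 with the 90th.

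**Figure D5:**
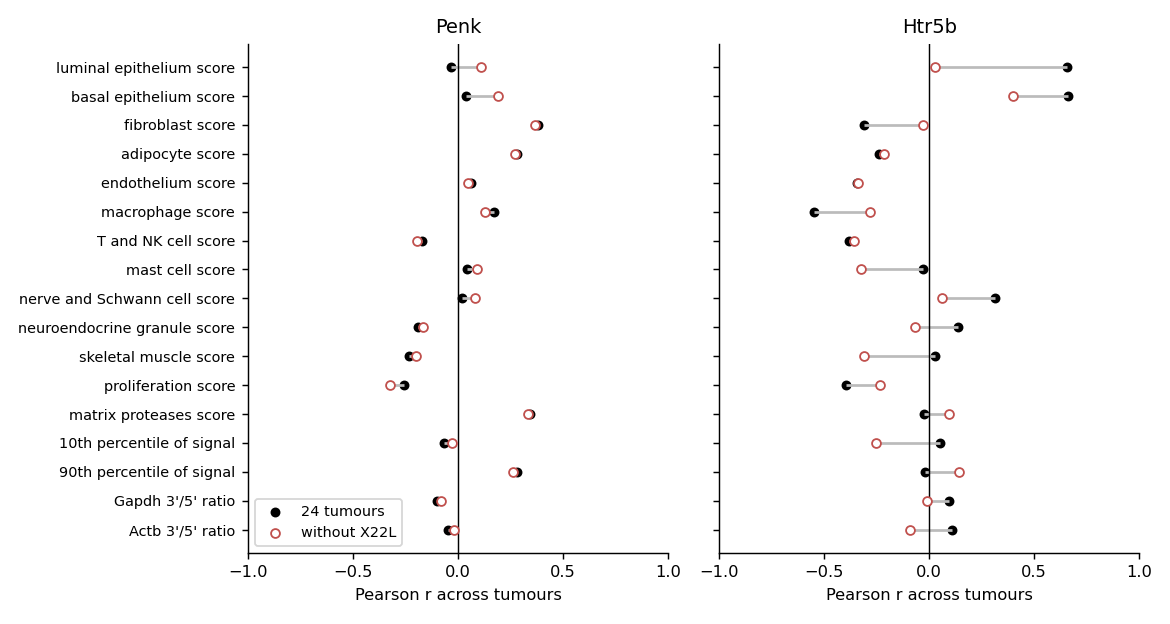
Pearson r over tumours of Penk (left) and Htr5b (right) with 13 marker list scores and 4 array measures, with 24 tumours (filled) and without X22L (open). The luminal (0.66) and basal (0.66) points of Htr5b lie farthest right and move towards 0 without X22L; all Penk points lie between -0.32 and 0.38.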

How the data were processed

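The authors deposited linear intensity values by probe set. How these were scaled and background corrected, and with which software, is not given in the sources used here, and no detection call was used. The values ran from 1 to 11851 and array medians from 158 to 176, so the arrays were compared as deposited. The number of arrays limits the precision. Here 57 control probe sets were left out, 15866 kept, a floor set at the 10th percentile of the whole table (41.6), and log2 taken. Gene symbols came from the platform annotation: 12783 probe sets had 1 symbol, 312 several and 2771 none, and each gene was taken at its probe set of highest mean. Differences are limma 3.58.1 estimates (R 4.3.3, lmFit and eBayes with trend and robust settings), with Benjamini-Hochberg adjusted p over all 15866 probe sets, tested on simulated data first. Relations across tumours used 100000 permutations (2-sided, scipy 1.17.1), and the comparison of glands an exact permutation test. The members and the gene lists were chosen with earlier results of these data known. The text names Penk, Htr5b, the measured pathway genes that passed with others of their lists, and the 10 highest and 5 lowest r for each member. Alternatives were quantile normalization, other floors or none with 16 added, other sets of glands, the tumour X22L left out and same-numbered samples as a block. Others were median-centred arrays, array weights, eBayes without trend and robust settings, probe sets mostly at the floor left out, and the mean of a gene's probe sets. Relations were also recomputed with same-numbered tumours averaged and with Spearman's rho. With array weights 10801 probe sets passed in place of 9238, and 51 pathway genes in place of 48. Leaving out Young was added after seeing the data.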

Additional observations from a re-analysis of the deposited data

How the results depend on the processing

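Over the comparisons of the report, 58 recomputed values kept their direction and side of the threshold (or stayed within the spread or 1.5-fold), 5 moved and 2 lost significance. Of the values recomputed for single pathway genes and single relations, 53 lost significance, 21 gained it and 6 called ones changed sign, while 957 kept their side of the threshold. Among values not called under either setting 37 changed sign, 26 of them correlations. With only X27.1N, X28.1N and Young as normal, 2658 probe sets passed in place of 9238 (1073 higher and 1585 lower), 15 pathway genes in place of 48 (5 higher and 10 lower), and the Penk difference was 2.18; the setting has 3 normal glands in place of 11. Of the single-gene changes, 28 losses belong to it, as do the changed signs of Pomc (-0.047), Ogfr (0.071), Pcsk1n (0.21), Htr1b (-0.017) and Htr2a (-0.013). Gnai2 changed sign with quantile normalization (0.0091). The Htr5b difference was 3.04 with the floor at the 5th percentile and 1.74 at the 20th, as follows from glands that are all at the floor. The Penk difference between NewN and other glands was -1.46 without X27.1N and -0.65 without Young, both with an exact permutation p of 0.178. With same-numbered samples as a block (consensus correlation 0.32; correlations of deviations 0.19, 0.25, 0.04 and 0.36), 9442 probe sets and 47 pathway genes passed, Pcsk1n alone being lost (-0.25), and the differences were 3.16 for Penk and 2.40 for Htr5b. The labels do not say that a number marks a rat. Signal near background limits what can be read for Htr5b in glands and for the weakly hybridised receptors, and X22L alone shapes many correlations of Htr5b.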

Other observations

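The genes closest to Htr5b when X22L was left out, chosen after their values were seen, were Dusp6, Rpl23 and Art3. Dusp6, a phosphatase that switches off ERK and is itself induced by ERK signalling, had an r of 0.79 with Htr5b over the 24 tumours and 0.78 without X22L, with a Spearman rho of 0.81. Its signal was 778 ± 147 (SD, n = 11) in glands and 2730 ± 660 (SD, n = 24) in tumours, a log2 difference of 1.80 (SE 0.12, limma adjusted p = 3.53e-15). Rpl23, a ribosomal protein, had an r of 0.71 with Htr5b and 0.77 without X22L. Art3, a mono-ADP-ribosyltransferase family gene, had 0.80 and 0.76, while its signal was lower in tumours, at 310 ± 113 (SD, n = 24) against 1464 ± 431 (SD, n = 11).

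For Penk, leaving out X22L brought Cx3cl1, the chemokine fractalkine, from an r of 0.20 to 0.60. Its signal in X22L was 39.0, under the floor, against a tumour median of 679. Over the 24 tumours the r of Cx3cl1 with Htr5b was higher than with Penk, at 0.72. Mcpt8, a basophil and mast cell protease, had an r of 0.52 with Penk and 0.59 without X22L. Its signal was 14.1 ± 8.01 (SD, n = 11) in glands, a mean under the floor, and 178 ± 146 (SD, n = 24) in tumours. These genes were also chosen after their values were seen.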
